A study of Mus musculus with 24 samples.

Results

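Oxidative phosphorylation transcripts of cultured mouse embryos were measured 1 h after the start of exposure to an activated cyclophosphamide. The members are the probes annotated with a single gene symbol that begins with Nduf, Sdha to Sdhd, Uqcr, Cox4 to Cox8 or Atp5. There were 87 such probes among 15360, from 61 of the 6970 named genes: 26 of respiratory complex I, 4 of complex II, 5 of complex III, 10 of complex IV and 16 of complex V. The rule uses gene symbols only. Of the 61 genes, 7 encode no subunit: the complex I assembly factors Ndufaf1, Ndufaf3, Ndufaf4 and Ndufaf6, the complex II assembly factor Sdhaf2, the supercomplex factor Cox7a2l and the pseudogene Ndufs5-ps.

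The treated embryos were held at 37 °C with 40 µM 4-hydroperoxycyclophosphamide (4CP), an analogue that needs no activation by the liver, and the control embryos were held at the same temperature without drug. Treated and control total RNA shared every one of 24 two-channel records, which form 12 slides with 2 records each and 6 slide pairs. The channels were swapped between both slides of a pair. The sources used here give no strain, embryonic stage, dye or number of embryos per extract, and other exposures named in the labels were not analysed here. The values came in 2 tables, each with 7680 probes of its own platform and with 3 slide pairs, and n = 3 refers to these pairs. The first table held 36 member probes of 29 genes, and the second held 51 of 40 genes. Whether a pair is a separate culture, litter or extract is not stated, so p-values rest on the spread among slide pairs, part or all of which may be technical.

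Each value is a log ratio of both channels relative to the median probe of its record. The log base is 2 or e and is not stated, so sizes are in log units. In base 2 a value of 0.1 stands for 1.07-fold and 0.5 for 1.41-fold, and in base e they stand for 1.11-fold and 1.65-fold. The treatment effect of a pair is the value where treated RNA was in channel 1, minus the value on its swapped partner, divided by 2. Its positive sign means more RNA after treatment if channel 1 is the numerator and if the authors had left the swapped slides unturned. Neither is stated. If the slides had been turned, treated over control would lie in the sum of both slides divided by 2, called here the component shared by both slides, and a dye bias would lie in the treatment effect instead. Both quantities are therefore given. The number of slide pairs limits their precision, and signal over background is unknown. RNA came from whole cultures, so fewer cells of a type and less RNA per cell cannot be told apart in any value below.

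Oxidative phosphorylation makes most of the ATP of an aerobic cell. Complex I takes electrons from NADH and complex II from succinate, complex III passes them from ubiquinol to cytochrome c, and complex IV passes them to oxygen. Complexes I, III and IV pump protons across the inner mitochondrial membrane, and complex V, the ATP synthase, lets the protons back through its Fo part to drive the catalytic F1 part. The members are nuclear genes, whose products are joined in the mitochondrion with the subunits that mitochondrial DNA encodes. Early mouse embryos after implantation rely largely on glycolysis, and their use of respiration grows as the yolk sac circulation forms.

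Many nuclear respiratory genes are known to carry promoter sites for NRF1, for the ETS factor GABPA (also named NRF2) and for YY1, and the promoter windows of the members were searched for the core letters of each. RefSeq windows of GRCm38.p6, from 250 bases before to 50 bases after the start, were found for 51 of the 61 genes, 55 windows in all. On either strand, GCGCATGCG (NRF1) was in 7 of 55 windows, 12.7%, against 1.75% of all 32851 windows. CCGGAAG (the ETS core) was in 18, 32.7%, against 8.86%. AANATGGCG (YY1) was in 10, 18.2%, against 2.38%. At least 1 of them was in 29, 52.7%, against 12.1%. These matches describe the letters of the windows and not binding. For 1 gene of each complex that holds a match close to its start, the 100 bases before the start are shown 5′ to 3′ on the strand of the gene, with the match in capitals: the ETS core, as CCGGAAG or as its reverse complement CTTCCGG, in the first 4 and the NRF1 letters, which match on both strands and overlap, in Atp5k.
Ndufb7: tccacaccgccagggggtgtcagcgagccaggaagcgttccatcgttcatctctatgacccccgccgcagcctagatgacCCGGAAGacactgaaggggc
Sdhd: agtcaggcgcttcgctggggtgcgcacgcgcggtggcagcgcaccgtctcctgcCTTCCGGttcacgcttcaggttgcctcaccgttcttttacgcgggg
Uqcr11: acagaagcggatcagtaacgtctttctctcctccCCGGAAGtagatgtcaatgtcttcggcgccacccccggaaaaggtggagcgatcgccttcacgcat
Cox6a1: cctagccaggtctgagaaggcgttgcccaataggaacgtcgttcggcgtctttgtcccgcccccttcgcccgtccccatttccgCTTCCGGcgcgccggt
Atp5k: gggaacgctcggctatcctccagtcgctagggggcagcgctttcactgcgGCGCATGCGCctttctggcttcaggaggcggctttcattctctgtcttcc
The stretches lie at chr8:83566658-83566757, plus strand (Ndufb7, a complex I accessory subunit), chr9:50603850-50603949, minus strand (Sdhd, a membrane anchor of complex II), chr10:80406822-80406921, minus strand (Uqcr11, a small subunit of complex III), chr5:115348959-115349058, minus strand (Cox6a1, the complex IV subunit VIa of most tissues) and chr5:108434400-108434499, minus strand (Atp5k, subunit e of the ATP synthase).

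With the swapped slides turned, no member passed the test in either table. In the first table, 0 of 36 member probes had an adjusted p under 0.05 with limma and Benjamini-Hochberg adjustment over all 7680 probes, where 0% of all probes did (lowest adjusted p = 0.997). An unadjusted p under 0.05 was found for 1 of 36 member probes, against 2.34% of all probes. In the second table, 0 of 51 member probes passed, again with 0% of all probes called (lowest adjusted p among members = 0.945, among all probes 0.673), and 1 of 51 had an unadjusted p under 0.05, against 5.22% of all probes. Every member had a value on every record, and no filter on low values was applied. Below, a gene with several probes is given as their average, and its probes could differ in sign within a pair. The p of such a gene is the lowest among its probes and is not a test of the average.

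The treatment effects of members were small in both tables. Over the 29 genes of the first table the median was 0.033, with medians of 0.077, 0.038 and -0.013 in pairs 1, 2 and 3, and 20 genes were positive. Over all 3838 named genes of that table the median was 0.0012, with 0.024, 0.0084 and -0.010 in the same pairs. Over the 40 genes of the second table the median was -0.00093, with -0.0058, 0.0092 and 0.0033 in its pairs, 19 genes were positive, and the median of all 4075 genes was -0.0032. Of all named genes, 1956 of 3838 and 1873 of 4075 were positive. The lowest and highest member genes had -0.077 and 0.10 on the first platform, and -0.056 and 0.083 on the other. The first-table median was 0.012 without pair 1, 0.027 without pair 2 and 0.047 without pair 3.

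Of the first-table member probes, 12 of 36 (33.3%) were positive in all 3 pairs, against 11.4% of all probes, and 3 of 36 (8.33%) were negative in all 3, against 11.2%. Of the second-table member probes, 4 of 51 (7.84%) were positive in every pair, against 9.84% of all probes, and 3 of 51 (5.88%) were negative in every pair, against 14.7%. The larger share of positive members was therefore seen on 1 platform and not on the other. The difference between the platforms was not tested. The signs are relative to the median probe: with values as deposited the median of all first-table probes lay at -0.128, 0 of 29 member genes were above 0, and 21 of 29 were above that median, as with centring. That last count could not change, since centring moves all probes of a record alike.

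**Figure D1:**
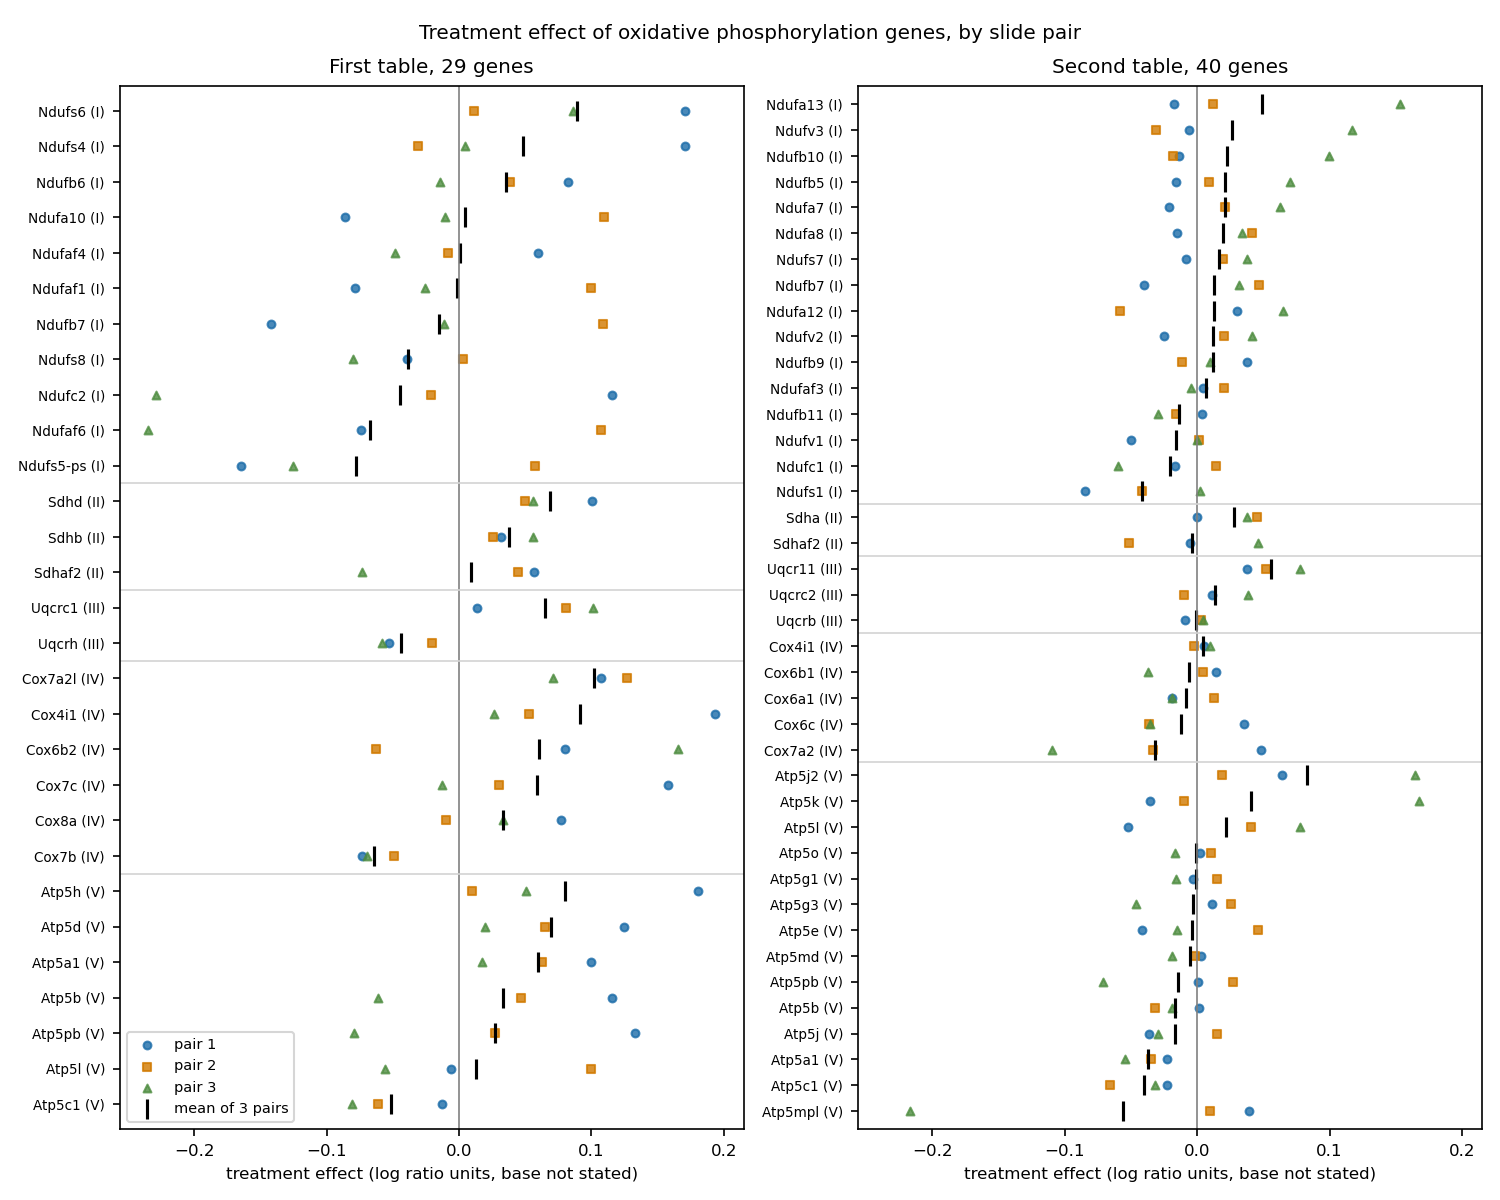
Treatment effect of each member gene in the 3 slide pairs of the first table (29 genes, left) and the second table (40 genes, right), in log units of unstated base on the x axis, with genes ordered by complex (Roman numeral) and by mean. Points are pairs and black bars are means of 3 pairs. The points of most genes lie on both sides of 0, and the means run from -0.077 to 0.10 on the left and from -0.056 to 0.083 on the right.

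Complex I was the largest group, with 11 first-table and 16 second-table genes, and its median treatment effect was -0.0014 and 0.012. Its core subunits carry the flavin and the iron-sulfur clusters along which electrons run. Ndufs8, a core iron-sulfur subunit, had -0.039, 0.0031 and -0.080 in pairs 1, 2 and 3 of the first table. On the second platform Ndufs1, the large core subunit that holds several iron-sulfur clusters, had -0.085, -0.042 and 0.0022, with a mean of -0.041 ± 0.043 (SD, n = 3) and an adjusted p of 0.977 with limma. Ndufv1, which binds NADH and the flavin, had -0.050, 0.0016 and 0.00010. Its partner Ndufv2 had -0.025, 0.020 and 0.041, and Ndufs7, the core subunit next to the quinone site, had -0.0086, 0.020 and 0.038. None of these 5 core subunits had the same sign in every pair.

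Accessory subunits surround that core. Ndufs6, which lies on the arm that binds NADH, had 0.17, 0.012 and 0.086 in the first table, a mean of 0.089 ± 0.080 (SD, n = 3) and an adjusted p of 0.997 with limma. It was the 1 complex I gene of either table with a positive value in all 3 pairs, and no complex I gene was negative in all 3. Ndufs4, an accessory subunit whose loss in mice gives a fatal encephalopathy, had 0.17, -0.031 and 0.0048, where pair 1 stood apart. Ndufc2 had 0.12, -0.021 and -0.23 in the first table, and Ndufc1 had -0.017, 0.015 and -0.060 in the second. Ndufa13, also known as GRIM-19, had -0.017, 0.012 and 0.15 in the second table, so its mean of 0.049 ± 0.091 (SD, n = 3; adjusted p = 0.977 with limma) rested on pair 3. The same held for Ndufv3, with -0.0063, -0.031 and 0.12, and for Ndufb10, with -0.014, -0.019 and 0.10. Means of the other accessory genes lay between -0.015 and 0.035 on the first platform and between -0.014 and 0.021 on the other.

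The assembly factors of complex I act on the unfinished enzyme. Ndufaf1 had -0.079, 0.10 and -0.025, Ndufaf4 had 0.060, -0.0086 and -0.048 and Ndufaf6 had -0.074, 0.11 and -0.23 in the first table. Ndufaf3 had 0.0046, 0.021 and -0.0045 in the second. The signs of each differed between pairs. The probe of Ndufs5-ps had -0.16, 0.057 and -0.13 and a mean of -0.077 ± 0.12 (SD, n = 3; adjusted p = 0.997 with limma), the lowest of the first-table members. A pseudogene probe may also bind RNA of the parent gene Ndufs5, and probe sequences were not used here.

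Complex II links the tricarboxylic acid cycle to the respiratory chain. Its iron-sulfur subunit Sdhb had 0.032, 0.026 and 0.056 in the first table and a mean of 0.038 ± 0.016 (SD, n = 3; adjusted p = 0.997 with limma). The membrane anchor Sdhd had 0.10, 0.050 and 0.056 and a mean of 0.069 ± 0.028 (SD, n = 3; adjusted p = 0.997 with limma). Both were positive in every pair, with little spread between pairs, yet neither passed. Sdha, the flavoprotein that oxidises succinate, was measured by 2 probes of the second table. Their average was -0.000057, 0.045 and 0.038, with a mean of 0.028 ± 0.024 (SD, n = 3) and a lowest adjusted p of 0.986 with limma. The first probe had 0.047, 0.085 and -0.059 and the other had -0.047, 0.0058 and 0.13, so their signs differed in pairs 1 and 3. Sdhaf2, the factor that attaches the flavin to Sdha, was on both platforms, with 0.057, 0.044 and -0.073 in the first and -0.0053, -0.052 and 0.046 in the second, and its values crossed 0 on each. Its second-table mean was -0.0036 ± 0.049 (SD, n = 3; adjusted p = 0.999 with limma).

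Complex III had core proteins and small subunits among the members. Uqcrc1, a core protein, had 0.013, 0.081 and 0.10 in the first table and a mean of 0.065 ± 0.046 (SD, n = 3), with an unadjusted p of 0.0532 and an adjusted p of 0.997 for the lower of its probes with limma. In pair 1 its probes lay on opposite sides of 0, at -0.11 and 0.14. Uqcrh, the hinge protein, had -0.053, -0.021 and -0.058, negative in every pair, with a mean of -0.044 ± 0.020 (SD, n = 3; adjusted p = 0.997 with limma). On the other platform Uqcr11 had 0.038, 0.052 and 0.078, positive in every pair, with a mean of 0.056 ± 0.020 (SD, n = 3; adjusted p = 0.949 with limma). The core protein Uqcrc2 had 0.011, -0.0097 and 0.039 as the average of its 2 probes, with a mean of 0.013 ± 0.024 (SD, n = 3) and an adjusted p of 0.956 for the lower of them with limma. Its probes had means of 0.066 and -0.039 and lay on opposite sides of 0 in pair 3. Uqcrb, which lies near the quinone site, had -0.0094, 0.0030 and 0.0044.

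Complex IV had the highest complex median of the first table, 0.060, and the lowest of the second, -0.0085. The highest member of the first table was Cox7a2l, a factor that joins complexes III and IV into supercomplexes. Its centred log ratios were -0.37, 0.071 and -0.86 on the slides of pairs 1, 2 and 3 with treated RNA in channel 1, and -0.59, -0.18 and -0.998 on their swapped partners. In every pair the first slide was the higher, while both slides were negative in pairs 1 and 3. The treatment effects were 0.11, 0.13 and 0.071, with a mean of 0.10 ± 0.028 (SD, n = 3), an unadjusted p of 0.0307 for the lower of its probes and an adjusted p of 0.997 with limma. Both of its probes were positive in every pair.

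The nuclear subunits of complex IV surround the catalytic core that mitochondrial DNA encodes. Cox4i1, the regulatory subunit IV of most tissues, had 0.19, 0.053 and 0.027 in the first table and a mean of 0.091 ± 0.090 (SD, n = 3; adjusted p = 0.997 with limma). On the second platform the same gene had 0.0054, -0.0024 and 0.0100 as the average of 3 probes, with a mean of 0.0043 ± 0.0062 (SD, n = 3). The lowest adjusted p among these probes was 0.982 with limma, for a probe with a mean of 0.030. Cox7b had -0.073, -0.049 and -0.070, negative in every pair. Cox7c had 0.16, 0.030 and -0.013 and Cox8a had 0.077, -0.0099 and 0.033. Of the second-table genes, Cox7a2 had 0.048, -0.033 and -0.11, a mean of -0.032 ± 0.079 (SD, n = 3; adjusted p = 0.985 with limma), and Cox6a1, Cox6b1 and Cox6c had means of -0.0085 ± 0.019, -0.0061 ± 0.027 and -0.012 ± 0.041 (SD, n = 3 each). Cox6b2, the testis form of subunit VIb, had 0.080, -0.063 and 0.17 in the first table, a mean of 0.061 ± 0.12, and Cox8a there had a mean of 0.033 ± 0.044. The adjusted p of these 5 genes lay between 0.997 and 0.999 with limma.

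Complex V is made of the catalytic F1 part and of the membrane Fo part with its stalks. Positive means were found for 6 of 7 genes on the first platform and for 3 of 14 on the other. Of all named genes, 1956 of 3838 and 1873 of 4075 had positive means. Atp5a1, the alpha subunit of F1, had 0.10, 0.062 and 0.017 in the first table, with a mean of 0.060 ± 0.041 (SD, n = 3) over 3 probes. The lowest adjusted p among them was 0.997 with limma. The single Atp5a1 probe of the second table had -0.022, -0.035 and -0.054, all negative, with a mean of -0.037 ± 0.016 (SD, n = 3; adjusted p = 0.977 with limma). This was the 1 gene of the 8 on both platforms whose pairs were all positive on one and all negative on the other, and the difference was not tested. Atp5c1, the gamma subunit that turns inside F1, was negative in every pair on both, with -0.013, -0.061 and -0.080 on the first platform and -0.023, -0.066 and -0.032 on the other (limma adjusted p = 0.997 and 0.949). Atp5b, the catalytic beta subunit, had 0.12, 0.047 and -0.061 in the first table. In the second it had 0.0015, -0.032 and -0.019. Atp5d, the delta subunit, had 0.12, 0.065 and 0.020 in the first table, and Atp5e, the epsilon subunit, had -0.042, 0.046 and -0.016 in the second. All 4 F1 genes of the second table had negative means, with a median of -0.027, while 3 of 4 F1 genes of the first were positive, with a median of 0.047.

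Among Fo and stalk genes, Atp5j2 (subunit f) had the largest mean of the second table. Its centred log ratios were -0.47, 0.066 and -0.65 with treated RNA in channel 1 and -0.60, 0.027 and -0.98 with treated RNA in channel 2, so that the first slide was the higher in every pair and most so in pair 3. The treatment effects were 0.064, 0.019 and 0.16, with a mean of 0.083 ± 0.075 (SD, n = 3), an unadjusted p of 0.0467 and an adjusted p of 0.945 with limma. Atp5h, a subunit of the peripheral stalk, had 0.18, 0.0095 and 0.051 in the first table and a mean of 0.080 ± 0.089 (SD, n = 3), with an adjusted p of 0.997 for the lower of its probes with limma. Atp5pb, the stalk subunit b, had 0.13, 0.027 and -0.079 in the first and 0.00087, 0.027 and -0.072 in the second table. Atp5l (subunit g) had -0.0062, 0.10 and -0.056 in the first table. Its second-table probe had -0.052, 0.041 and 0.078. Atp5k had -0.036, -0.0099 and 0.17 and Atp5mpl had 0.039, 0.0098 and -0.22, where pair 3 stood apart in opposite directions. Atp5g1 and Atp5g3, which encode the same proton-carrying c subunit, had means of -0.0012 ± 0.016 and -0.0029 ± 0.038 (SD, n = 3). The lower adjusted p among the probes of each was 0.994 and 0.991 with limma. Atp5o, the stalk subunit that grips F1, Atp5j and Atp5md had -0.0012, -0.017 and -0.0057.

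Members had like values on both slides of a pair, although the channels were swapped between them. The same sign on both slides of pairs 1, 2 and 3 was found for 25, 22 and 29 of 29 first-table genes and for 39, 34 and 38 of 40 second-table genes. Both slides were negative for 25, 6 and 24 first-table genes and for 38, 17 and 38 second-table genes. These counts were not made over all genes, so they are not shown to be particular to the members. Across genes, the slides of a pair correlated with r = 0.68, 0.87 and 0.94 over 29 genes and r = 0.98, 0.95 and 0.95 over 40 genes. Over all probes the same pairs had r = 0.70, 0.79 and 0.96 on the first platform and 0.95, 0.81 and 0.96 on the other. Both slides of a pair carry the same probes and share a pair number in their titles, and genes are not independent replicates. The slides of a pair differed by a median of 0.17, 0.098 and 0.11 in absolute value on the first platform and 0.035, 0.040 and 0.075 on the other. The 2 records of 1 slide differed by a median of 0.10 to 0.238 for first-table member probes and 0.0848 to 0.201 for second-table member probes.

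**Figure D2:**
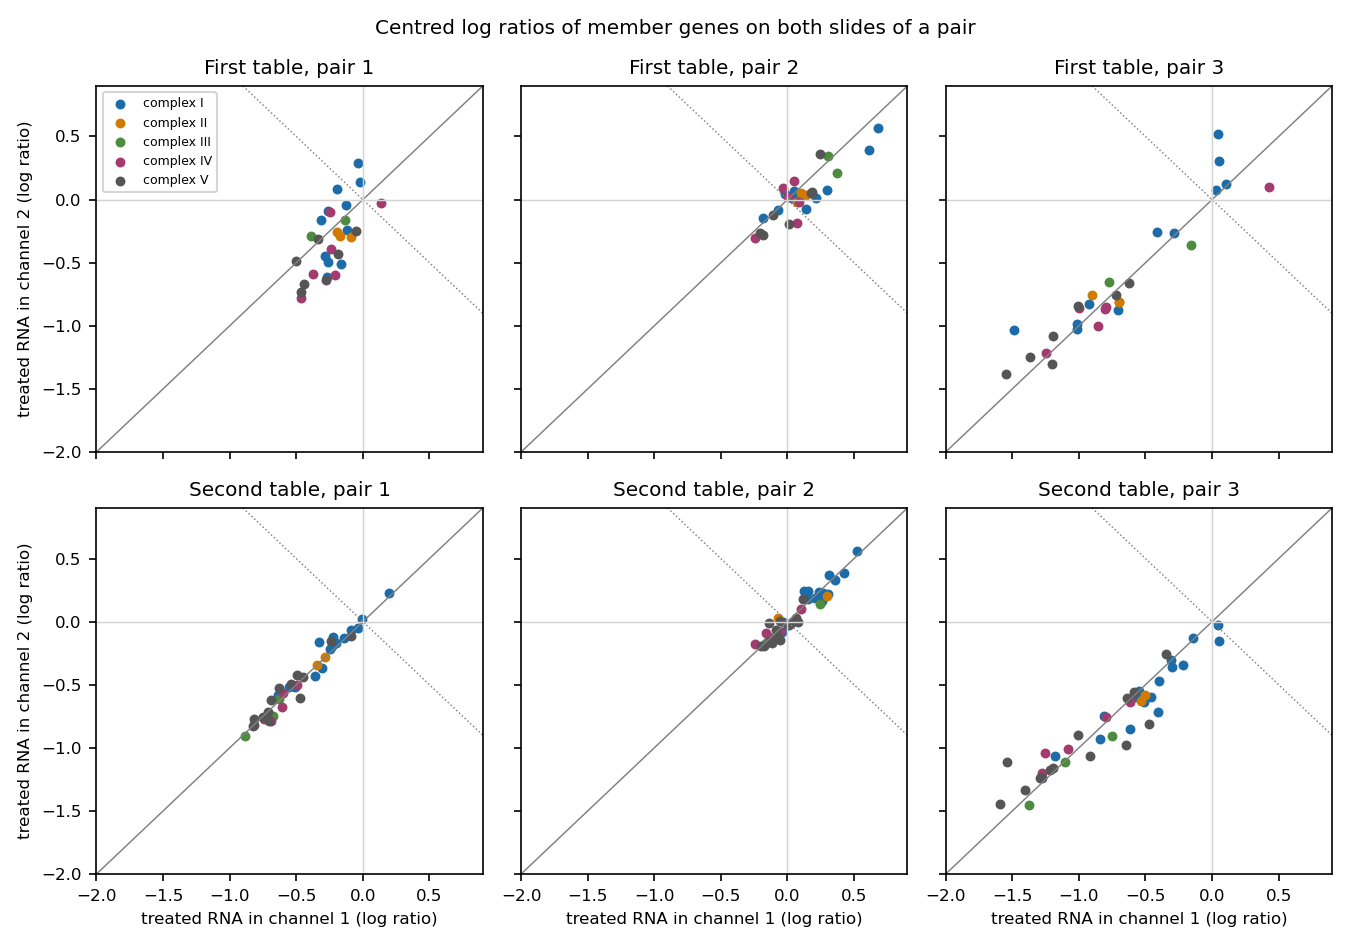
Centred log ratio of each member gene on the slide with treated RNA in channel 1 (x axis) against its swapped partner (y axis), in log units of unstated base, for the 3 pairs of the first table (top, 29 genes) and of the second (bottom, 40 genes), coloured by complex. Points on the solid diagonal have the same value on both slides. A difference between treated and control RNA alone would put points on the dotted line if the swapped slides had been left unturned. If they had been turned, it would put points on the solid line. Which of these holds is not stated. The points follow the solid line in each panel and reach furthest below 0 in pair 3.

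The component shared by both slides was negative for most members, with the lowest medians in complexes V and IV of the first table and III, IV and V of the second. Over the 29 first-table genes its median was -0.33, with -0.31, 0.035 and -0.82 in pairs 1, 2 and 3, and 24 genes were negative. Over the 40 second-table genes it was -0.41, with -0.51, -0.010 and -0.76, and 38 were negative. All genes had medians of -0.039 and -0.049, and 2139 of 3838 and 2424 of 4075 of them were negative. Without centring the median of all probes was 0.45 and 1.34, and the member medians of 0.099 and 0.96 lay as far below it as with centring. Centring moves all probes of a record alike, so this distance could not change. Negative values in all 3 pairs were found for 12 of 36 first-table member probes (33.3%), against 18.1% of all probes, and for 24 of 51 second-table member probes (47.1%), against 17.9%. No member passed the limma test of this component. In the first table it called 0 of 36 members and 2.85% of all probes (219 of 7680, each negative), with a lowest adjusted p of 0.0629 among members. In the second it called 0 of 51 members and 0% of all probes, with a lowest adjusted p of 0.198 among members. An unadjusted p under 0.05 was found for 10 first-table and 26 second-table member probes, and for 1420 and 1254 probes in all. The count of calls depended on the pairs used, for members and for all probes. Without pair 2, 10 of 36 and 37 of 51 members passed, where 771 and 1872 of all 7680 probes did. Without pair 1 the members passing were 0 and 1, among 49 and 84 probes in all, and without pair 3 they were 1 and 1, among 584 and 194. The size depended on pair 3: the first-table median of members was -0.38 without pair 1, -0.53 without pair 2 and -0.097 without pair 3. The second-table median was -0.35, -0.60 and -0.24 in the same order.

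The pairs differed in the spread of the shared component over all probes as they did in the members. Its SD over all probes of the first table was 0.27, 0.27 and 0.68 in pairs 1, 2 and 3, and 0.35, 0.24 and 0.57 in the second. Pair 3, with the largest SD, also had the lowest member medians. The part of this spread in the members' values was not tested. For the treatment effect this SD was 0.12, 0.099 and 0.10 in the first table. In the second it was 0.058, 0.079 and 0.087. With records scaled to 1 spread, 9 of 36 first-table and 2 of 51 second-table members passed for the shared component, where 1099 and 270 of all 7680 probes did. With quantile normalization 9 and 10 members passed, among 917 and 466 probes in all.

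By complex, the shared component was most negative for the ATP synthase and for complex IV in the first table, with medians of -0.57 and -0.39, and less so for complexes II, I and III, with -0.30, -0.17 and -0.14. The first-table complex I group includes assembly factors, with a median of 0.024, and the pseudogene, with 0.31. Its accessory subunits had a median of -0.42 and its core subunit Ndufs8 had -0.17. The complex I median there thus depends on genes that encode no subunit. In the second table complexes III, IV and V had -0.63, -0.60 and -0.57, and complexes II and I had -0.25 and -0.16. Without pair 3 the medians of complexes I, IV and V were -0.081, -0.17 and -0.29 on the first platform and -0.0043, -0.38 and -0.30 on the other. The differences between complexes were not tested, and complexes II and III rest on 2 or 3 genes a table. All 7 and all 14 complex V genes were negative in mean, against 7 of 11 and 14 of 16 complex I genes. Of all named genes, 2139 of 3838 and 2424 of 4075 were negative.

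**Figure D3:**
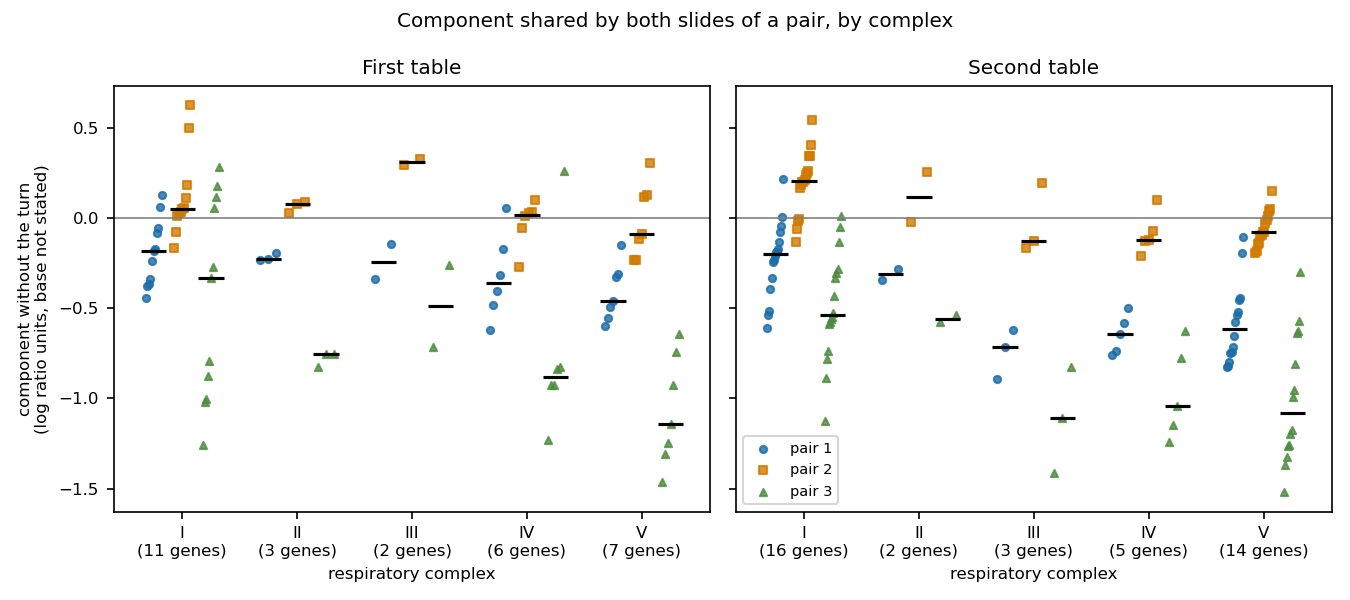
Component shared by both slides of a pair (sum of the centred log ratios divided by 2, log units of unstated base) for each member gene, by complex, in the first table (left) and the second (right). Points are genes in pair 1, 2 or 3, and black bars are medians over genes. Pair 3 lies lowest for each complex, pair 2 lies highest in median, and the complex V medians of pair 3 are -1.14 and -1.08.

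Stalk and Fo genes of the ATP synthase were among the most negative. Atp5pb had a shared component of -0.60, -0.24 and -1.46 in the pairs of the first table and -0.82, -0.14 and -1.52 in those of the second, with adjusted p of 0.0629 and 0.200 with limma. Its centred log ratios in the second table were -0.82, -0.11 and -1.59 with treated RNA in channel 1 and -0.82, -0.17 and -1.45 with treated RNA in channel 2, so each slide nearly repeated its partner. Atp5h had -0.46, -0.12 and -1.25. Atp5l had -0.49, -0.091 and -1.14 on the first platform, -0.57, 0.038 and -0.99 on the other. Atp5o had -0.75, -0.19 and -1.17. Atp5md, also named DAPIT, had -0.71, -0.20 and -1.26, and Atp5mpl, a small proteolipid of the enzyme, had -0.74, -0.14 and -1.33. The c subunit genes were less negative as averages of 2 probes, with -0.44, -0.013 and -0.62 for Atp5g1 and -0.10, -0.095 and -0.30 for Atp5g3. Their probes differed, with means of -0.54 and -0.18 for Atp5g1 and -0.34 and 0.011 for Atp5g3. Of the F1 genes, Atp5b had -0.55, -0.23 and -1.31 on the first platform, -0.82, -0.026 and -1.20 on the other. Atp5e had -0.19, -0.10 and -0.57.

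In complexes III and IV, Uqcrc2 had the second lowest shared component of the second table, with -0.89, -0.13 and -1.41, but its probes had means of -1.10 and -0.53. Uqcrb had -0.62, -0.17 and -1.11. Uqcrc1, the other core protein, was near 0 in the first table, with -0.15, 0.29 and -0.26. Cox7c had -0.62, -0.27 and -1.23, negative in each pair for both of its probes (lowest adjusted p = 0.0709 with limma), and Cox7a2l had -0.48, -0.056 and -0.93. Cox6b1, the subunit VIb of most tissues, had -0.76, -0.13 and -1.24 in the second table and Cox7a2 had -0.74, -0.21 and -1.15. The testis paralogue Cox6b2 had 0.055, 0.026 and 0.26 in the first table. The paralogues lie on different platforms and their probes were not compared by test.

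Complex I genes spread on both sides of 0. Ndufc2 had -0.38, -0.17 and -1.26 and Ndufs4 had -0.34, 0.013 and -1.02 in the first table, and Ndufc1 had -0.54, -0.14 and -1.12, Ndufv2 -0.61, -0.0072 and -0.88 and Ndufb11 -0.51, -0.018 and -0.78 in the second. On the other side, Ndufb10 had 0.21, 0.54 and -0.050 and Ndufs7 had -0.077, 0.40 and 0.010, the 2 second-table members with positive means. Of the first table, Ndufb7, Ndufaf1, Ndufaf6, Ndufs5-ps and Cox6b2 had positive means, from 0.024 to 0.31. For the core subunits the means were -0.17 for Ndufs8, -0.20 for Ndufs1, -0.081 for Ndufv1, -0.50 for Ndufv2 and 0.11 for Ndufs7.

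Of the 8 genes on both platforms, 7 had a negative shared component in both tables. Cox4i1 had -0.40 ± 0.43 and -0.34 ± 0.39 (SD, n = 3 each), Atp5pb had -0.77 ± 0.63 and -0.83 ± 0.69, and Atp5b had -0.70 ± 0.55 and -0.68 ± 0.60. Atp5l, Sdhaf2, Atp5a1 and Atp5c1 had -0.57, -0.34, -0.25 and -0.32 on the first platform and -0.51, -0.29, -0.44 and -0.75 on the other. Ndufb7 had 0.19 ± 0.28 and -0.10 ± 0.28. The treatment effects of these genes were 0.091 ± 0.090 and 0.0043 ± 0.0062 for Cox4i1, 0.027 ± 0.11 and -0.015 ± 0.051 for Atp5pb, and 0.034 ± 0.089 and -0.017 ± 0.017 for Atp5b. They were -0.015 ± 0.13 and 0.013 ± 0.047 for Ndufb7, 0.013 ± 0.080 and 0.022 ± 0.067 for Atp5l, -0.052 ± 0.035 and -0.040 ± 0.023 for Atp5c1, and 0.0095 ± 0.072 in the first table for Sdhaf2. The adjusted p of Atp5pb, Atp5b, Ndufb7, Atp5l and Sdhaf2 lay between 0.966 and 0.999 with limma. The tables were tested separately, and a value of one is set beside the other only as a description. The titles number the slide pairs 1 to 3 alike for both platforms, and whether the platforms share RNA is not stated, so like signs on both are not independent of each other. Where a gene had several probes, which held for 16 gene entries of the tables, they spanned a median of 0.034 in treatment effect and 0.149 in the shared component.

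Other genes of the same pathway were described by the same measures, and none of their probes passed for the treatment effect. The electron carriers and feeders (cytochrome c, electron transfer flavoprotein and coenzyme Q genes, 6 of 16 listed in each table) had median treatment effects of -0.033 and -0.0042, and median shared components of 0.0054 and 0.11. The tricarboxylic acid cycle genes, which feed the chain with NADH and succinate (7 and 10 of 16), had 0.0028 and -0.024, and shared components of -0.12 and -0.18. The carriers and channels that move adenine nucleotides, phosphate and metabolites across the mitochondrial membranes (3 and 5 of 6) had 0.055 and 0.0068, and shared components of -0.55 and -0.40. Complex IV assembly factors (1 and 3 of 12) had treatment medians of 0.013 and 0.029. Genes of mitochondrial transcription and biogenesis (5 and 2 of 10) had 0.0054 and -0.0019.

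Set beside other large families, the members lay between the 2 kinds of ribosomal protein. Cytosolic ribosomal protein genes (35 and 61 measured) had median shared components of -0.80 and -0.87, with 24 of 54 first-table probes past the limma threshold, against 2.85% of all first-table probes. Mitochondrial ribosomal protein genes (29 and 21) had -0.11 and -0.23, with 1 of 32 first-table probes past the threshold. Proteasome genes (20 and 14) had -0.32 and -0.34. For the treatment effect the same 3 families had first-table medians of 0.086, 0.027 and 0.036, against 0.033 for the members. Their second-table medians were -0.0066, 0.0094 and -0.0076, against -0.00093. Negative medians of the shared component were thus also found in all 3 families.

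**Figure D4:**
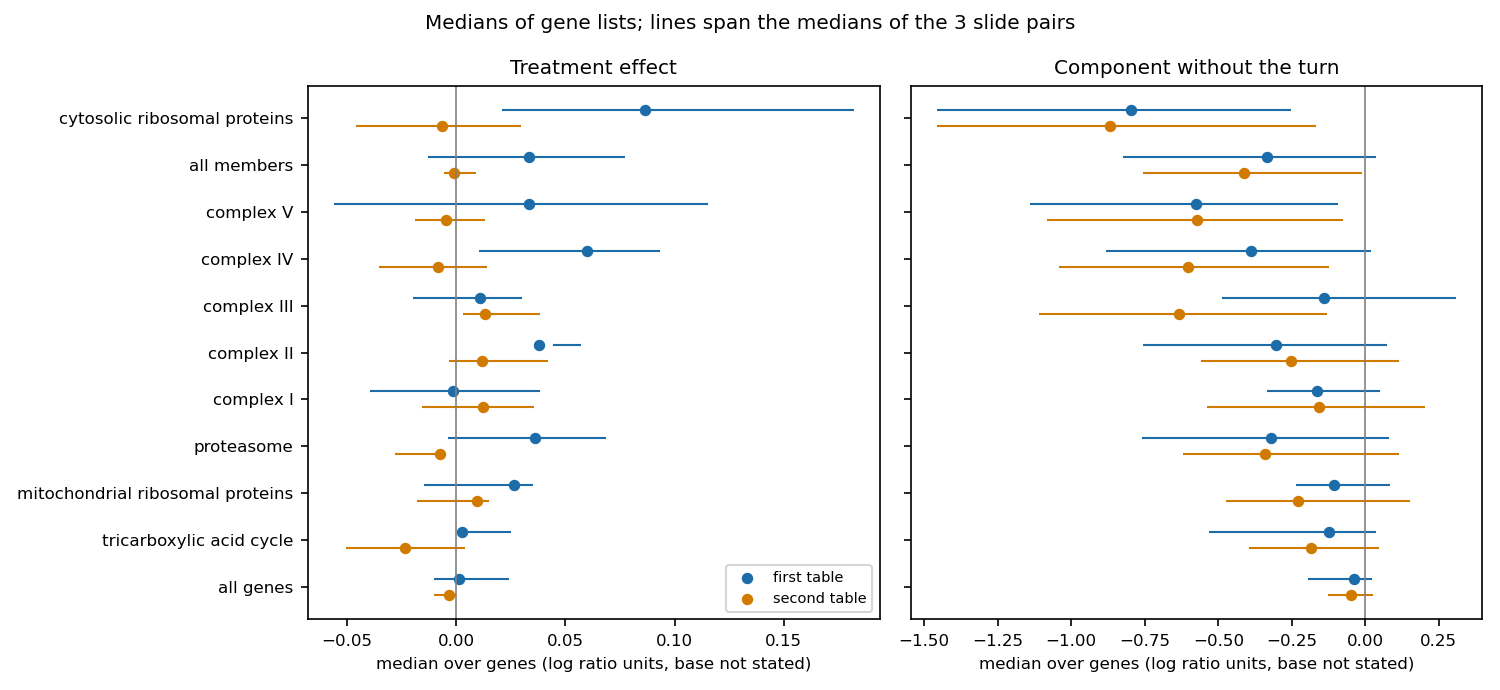
Median over genes of the treatment effect (left) and of the component shared by both slides (right), in log units of unstated base, for the members, their complexes, comparison families and all named genes. Points are medians of the mean over 3 pairs, in the first table (blue) and the second (orange), and lines span the medians of the 3 pairs, so a point can lie off its line. On the right the members lie at -0.33 and -0.41, between cytosolic and mitochondrial ribosomal proteins.

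Marker genes of other tissues that a cultured conceptus could carry were few. Of 7 heart markers, a tissue rich in mitochondria, none was among the named probes. Primitive erythroid markers (1 and 3 of 7) had shared components of 0.17 and -0.74, with -0.92, -0.019 and -1.29 in the second-table pairs, where the 3 genes were negative in mean. Yolk sac endoderm markers (4 and 1 of 11) had 0.12 and -0.037, and trophoblast and decidua markers (1 in each table, of 6) had -0.13 and -0.12. The erythroid markers had the same order over the second-table pairs as the members, lowest in pair 3 and nearest to 0 in pair 2. Cytosolic ribosomal protein genes of that table had this order too, with -1.02, -0.17 and -1.46. So did its proteasome genes, with -0.41, 0.11 and -0.62. In the first table the erythroid marker was highest in pair 3, with 0.19, -0.077 and 0.40. The yolk sac markers there were also highest in pair 3, at 0.45. The part of these markers in the members' values was not tested. Ratios hold no level of either channel, so levels of these markers in treated and in control RNA are not given.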

How the data were processed

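Per the file headers and values, the authors deposited log ratios, whose base, numerator channel, background correction and normalization are unstated in the sources used here. Values up to 7.71 leave base 2 or e, since a ratio of that size in base 10 exceeds the range of a 16-bit scanner. Each record was centred on its median, since the medians as deposited differed, between -0.305 and 1.12 for the first platform and between 0.272 and 2.10 for the other. The 2 records of a slide were averaged. Slides were paired by the numbers in their titles, and slides of a pair correlated over all probes (r from 0.70 to 0.96). The mean over 3 pairs was tested against 0 with limma 3.58.1 (lmFit, eBayes, 2-sided) in R 4.3.3, with Benjamini-Hochberg adjustment over the 7680 probes of a table and a threshold of 0.05. The fit was tested on simulated data. The design had been written for log2 ratios. The test was kept, since its p-values do not depend on the base.

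Probes were named by the platform annotation, checked against a RefSeq gene table by gene identifier (36 of 36 and 51 of 51 member probes matched). Probes with 1 symbol numbered 4749 and 4935, with several 227 and 275, and with none 2704 and 2470. Of those with several, 1 and 4 held a member name and were left out. Probes of a gene were averaged, and the p given for a gene with several probes is the lowest among them, not a test of the average. Complexes follow the symbol prefix and roles follow general knowledge. Members, lists and tests were chosen with earlier results of these data known. Mean, SD and adjusted p are given for the 2 genes of each complex and table with the lowest unadjusted p, for paralogues of a subunit and for genes on both platforms, with the adjusted p of some as a range. Other members are given by their values. Python 3.11.15, pandas 2.3.3 and matplotlib 3.10.9 were used.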

Additional observations from a re-analysis of the deposited data

Results flagged for a closer look

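On 1 record of the first table, the second record of pair 3 with treated RNA in channel 2, the median centred log ratio of complex I genes was -0.6253. The other 5 records of that orientation lay between -0.152 and 0.077. Its gap to the nearest of them, divided by the whole range of the 6 records, was above Dixon's critical value for a group of 6. The 6 records are 3 slides with 2 records each, so they are not 6 independent values. Such tests were made for the median of all members, the complex medians and the 10 genes per table given with statistics, in each orientation and table. Of these 64 tests, this was the 1 that was flagged, and chance flags about 1 in 20. For Atp5a1, the alpha subunit of the ATP synthase, the treatment effect was 0.060 in the first table, positive in all 3 pairs, and -0.037 in the second, negative in all 3. That difference between platforms was not tested.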

How the results depend on the processing

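No member passed for the treatment effect under the alternatives tried, except that 7 first-table members passed where only slides with treated RNA in channel 2 were used. Counts of all probes called for it were 33 and 1 in the first and second table with values as deposited, 24 to 30 and 0 to 58 without 1 pair, 174 with channel 1 slides alone and 668 with channel 2 slides alone in the first table, and 219 there for the component without the turn. The median treatment effect of members was -0.090 and -0.054 as deposited, -0.31 and -0.36 from channel 1 slides, 0.35 and 0.41 from channel 2 slides and -0.33 and -0.41 without the turn, and in the second table it was 0.0081 after quantile normalization and 0.011 with the first record of each slide. For the shared component, probes called were 0 and 6880 as deposited, 1099 and 270 with scaled records, 917 and 466 after quantile normalization, and 49 to 771 and 84 to 1872 without 1 pair. Members called were 30 of 51 in the second table as deposited, where 6880 of all 7680 probes were. There 0 of 40 member genes were negative, and the median of all probes was 1.34, so these calls do not show a negative component. Members called were 9 and 2 scaled, 9 and 10 after quantile normalization, and 0 to 10 and 1 to 37 without 1 pair. With the first or second record alone, 1 and 3 first-table members were called, where 318 and 290 of all 7680 probes were. With no replicate block, single slides, each the average of its 2 records, took the place of slide pairs as units. Then 860 and 545 probes and 5 and 4 members were called for the shared component, and 0 members for the treatment effect.

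Of the 10 genes per table given with statistics, 8 and 4 turned sign as deposited, where the median of all probes was -0.128 and -0.054. Those of the first table were Ndufs6 -0.034, Sdhd -0.055, Sdhb -0.086, Uqcrc1 -0.059, Cox7a2l -0.022, Cox4i1 -0.033, Atp5a1 -0.064 and Atp5h -0.044, and of the second Ndufa13 -0.0036, Sdha -0.025, Uqcrc2 -0.040 and Cox4i1 -0.048. From channel 1 slides 8 and 6 turned, Ndufs6 -0.31, Ndufs5-ps 0.23, Sdhd -0.22, Sdhb -0.26, Cox7a2l -0.39, Cox4i1 -0.31, Atp5a1 -0.20 and Atp5h -0.53 in the first table and Ndufa13 -0.086, Sdha -0.18, Uqcr11 -0.39, Uqcrc2 -0.80, Cox4i1 -0.34 and Atp5j2 -0.35 in the second. From channel 2 slides 1 and 4 turned, Uqcrh 0.20, Ndufs1 0.16, Sdhaf2 0.29, Cox7a2 0.67 and Atp5c1 0.71. Without the turn 9 and 6 did, Ndufs6 -0.40, Ndufs5-ps 0.31, Sdhd -0.29, Sdhb -0.30, Uqcrc1 -0.038, Cox7a2l -0.49, Cox4i1 -0.40, Atp5a1 -0.25 and Atp5h -0.61, and Ndufa13 -0.14, Sdha -0.21, Uqcr11 -0.45, Uqcrc2 -0.81, Cox4i1 -0.34 and Atp5j2 -0.43. On the second platform, leaving out 1 pair gave -0.0029 to 0.083 for Ndufa13, -0.071 to 0.0074 for Cox7a2 and -0.029 to 0.020 for Sdhaf2, Sdhaf2 was 0.028 with first records, and Sdha, Uqcrc2 and Cox4i1 were -0.0046, -0.030 and -0.016 with second records. The cause was not tested. With scaling or quantile normalization, none of these 20 gene values turned sign. Leaving out the replicate block keeps each mean as it was, so that setting could not turn a sign.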
